A study of Homo sapiens with 9 samples.

Results

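VAV1, VAV2 and VAV3 are the 3 members of the human VAV family. All 3 were measured, among 35010 genes on the array, each by 1 probe assigned to it through a RefSeq transcript (NM_005428 for VAV1, NM_003371 for VAV2 and NM_006113 for VAV3) and printed as 2 spots. The family was chosen on the measured levels themselves, because VAV2 fell with dose and VAV3 was lost at 80 nM, so the differences of the members between groups are a description and carry no test. The cells were A2780, a long-established ovarian carcinoma line of human origin, and the compound DIG-MSK is an analog of mithramycin, a compound that binds GC-rich DNA. The 3 groups were untreated cells, cells given 8 nM DIG-MSK for 24 h and cells given 80 nM for 24 h, each with 3 arrays from separate cultures; all 9 arrays are of the same line, grown in the same medium, and no group carried a genetic change or a solvent control that the labels name. The untreated and 8 nM arrays shared 1 slide and 1 scan, while the 80 nM arrays were on a slide and scan of their own, so for every difference that involves 80 nM the drug and the slide cannot be told apart.

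VAV proteins are guanine nucleotide exchange factors: they load small GTPases, chiefly RAC1, RHOG, RHOA and CDC42, with GTP through a Dbl homology domain. A pleckstrin homology domain beside it binds the lipid product of PI3-kinase, and an SH2 domain docks on phosphorylated receptors and adaptors, after which Src and Syk family kinases phosphorylate VAV and release its autoinhibition. VAV1 is known mainly from blood cells, where it acts below antigen receptors, whereas VAV2 and VAV3 are widely expressed and act below growth factor receptors and integrins in cell spreading and migration. The loaded GTPases act on effectors such as PAK kinases, WASP and WAVE proteins and formins, and are switched off by GTPase-activating proteins.

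On the GRCh38.p14 assembly, VAV1 lies on chromosome 19 (chr19:6772708-6857361, plus strand), VAV2 on chromosome 9 (chr9:133761894-133992324, minus strand) and VAV3 on chromosome 1 (chr1:107571161-107965180, minus strand). The 250 bases before an annotated start of each gene are shown because the drug class binds GC-rich DNA. They come from RefSeq, are written 5′ to 3′ on the strand of the gene, and have in capitals each GC box, searched as GGGCGG on both strands (CCGCCC on the reverse), with no overlap between matches. The windows are chr19:6772458-6772707 for VAV1, chr9:133992325-133992574 for VAV2 and chr1:107688500-107688749 for VAV3.
VAV1: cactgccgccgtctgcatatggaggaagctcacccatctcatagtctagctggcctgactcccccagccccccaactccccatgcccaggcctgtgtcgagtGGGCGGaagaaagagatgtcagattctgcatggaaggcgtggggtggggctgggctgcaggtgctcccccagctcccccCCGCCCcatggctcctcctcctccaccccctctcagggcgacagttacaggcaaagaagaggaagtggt
VAV2: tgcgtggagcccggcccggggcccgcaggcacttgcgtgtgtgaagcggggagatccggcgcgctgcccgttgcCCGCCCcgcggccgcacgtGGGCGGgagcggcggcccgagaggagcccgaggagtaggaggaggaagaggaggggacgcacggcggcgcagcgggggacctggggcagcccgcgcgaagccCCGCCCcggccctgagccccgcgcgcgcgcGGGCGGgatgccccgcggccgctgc
VAV3: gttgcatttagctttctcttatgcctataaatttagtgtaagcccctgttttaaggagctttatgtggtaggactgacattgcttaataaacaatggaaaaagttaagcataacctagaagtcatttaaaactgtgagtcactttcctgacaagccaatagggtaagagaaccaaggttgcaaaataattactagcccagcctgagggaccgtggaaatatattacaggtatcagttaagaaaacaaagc
The VAV2 window held 4 GC boxes with a GC content of 81.2%, the VAV1 window 2 boxes with 63.6%, and the VAV3 window 0 boxes with 37.2%. The VAV3 window belongs to a start inside the gene, 276.7 kb from its outer 5′ end, and the outer start was not analysed here. Among 35116 windows of the same length in the table, 42.6% held at least 1 GC box, 13.9% held at least 3, and the median GC content was 58%. A match describes the letters of the window only, and binding was not measured on these arrays.

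Levels are given as the log2 of the background-corrected spot intensity, from which the 75th percentile of that array was subtracted, so a level of 0 is a probe as bright as that percentile. Spots marked as outliers were left out. A probe was counted as measured on an array when the scanner software called at least as many of its remaining spots well above background as not. For a VAV probe with both spots left this means at least 1 of its 2 spots. Levels of different probes cannot be set against each other, because each probe has its own binding strength.

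VAV3, a member expressed in many tissues, showed a level that was high in 2 groups and lost in the other. On the untreated arrays its level was 0.83, 0.69 and 0.76, on the 8 nM arrays 0.31, 0.65 and 0.48, and on the 80 nM arrays -5.89, -6.03 and -6.06. The untreated mean was 0.76 ± 0.07 and the 8 nM mean 0.48 ± 0.17 (SD, n = 3 each), and these groups did not overlap, although only by 0.04 between the lowest untreated and the highest 8 nM array. In spot intensity the probe gave 941.4 to 1126 on untreated arrays, 803.3 to 1049 at 8 nM and 8.756 to 10.62 at 80 nM. None of the 3 arrays at 80 nM was well above background, where the lowest intensity of any measured probe was 6.72 to 9.21, so 80 nM has no measured level. With values below the lowest measured level of the array raised to it, VAV3 at 80 nM was 106-fold lower than in untreated cells and 87.4-fold lower than at 8 nM. These are not minimum falls, because the size depends on the background correction. Against untreated cells the log2 difference was -3.76 with normexp background correction and -4.54 on the authors' deposited values. At 8 nM VAV3 stood at 82.2% of the untreated level, a difference of -0.28 (SE 0.11). In RNA from whole cultures, fewer cells that carry a transcript and less of it per cell cannot be told apart.

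VAV2, the broadly expressed member, was measured on all 9 arrays and stepped down with dose. Its level was -0.52 on each of the untreated arrays, -1.30, -1.15 and -1.56 on the 8 nM arrays, and -2.41, -2.34 and -2.23 on the 80 nM arrays. The means were -0.52 ± 0.0019, -1.34 ± 0.21 and -2.33 ± 0.09 (SD, n = 3 each), and no group overlapped another. The gap was 0.63 between untreated and 8 nM and 0.67 between 8 nM and 80 nM. VAV2 was 1.77-fold lower at 8 nM than in untreated cells (difference -0.82, SE 0.12), 3.51-fold lower at 80 nM (-1.81, SE 0.05), and 1.99-fold lower at 80 nM than at 8 nM (-0.99, SE 0.13). Intensities ran from 369.3 to 485.4 untreated, 229.7 to 304.2 at 8 nM and 113.2 to 123.9 at 80 nM. The value of 8 nM replicate 2 rests on 1 spot of 229.7, because the other spot of the pair was marked as an outlier at an intensity of 27540. Without that array the 8 nM difference was -0.91, and with the outlier spot kept it turned to 0.33.

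VAV1, the member of blood cells, was dim but measured on all arrays of 2 groups. Its level was -3.85, -3.86 and -3.75 on the untreated arrays and -3.94, -3.77 and -3.79 at 8 nM, and these groups overlapped: the difference was -0.02 (SE 0.07). Its sign turned under several alternatives (-0.06 to 0.06 over all of them). At 80 nM the level was -6.48, -5.94 and -6.88, and no array was well above background. The intensity was 36.59 to 54.23 on the untreated and 8 nM arrays and 4.96 to 9.337 at 80 nM. With values below the lowest measured level of the array raised to it, VAV1 at 80 nM was 4.85-fold lower than in untreated cells and 4.79-fold lower than at 8 nM. These are not minimum falls, because the size depends on the background correction. Against untreated cells the log2 difference was -0.67 with normexp background correction and -1.12 on the authors' deposited values. The local background around the VAV spots was 38 to 58 on the slide of the untreated and 8 nM arrays and 20 to 37 on the slide of the 80 nM arrays, and its part in the VAV1 difference was not tested.

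**Figure D1:**
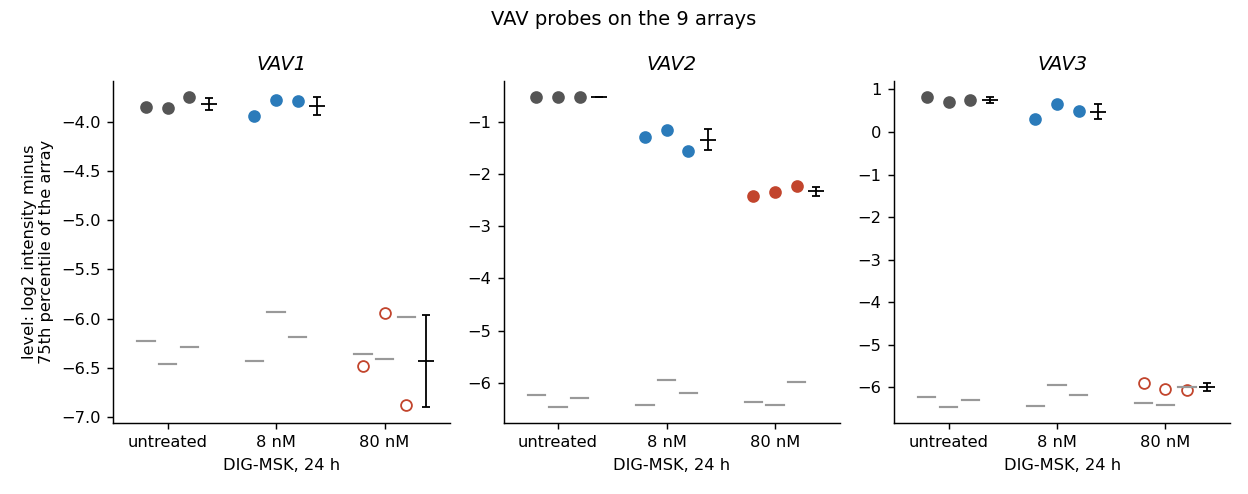
Level of the VAV1, VAV2 and VAV3 probes (y axis, log2 intensity minus the 75th percentile of the array, each panel with its own scale) on the 9 arrays by dose (x axis). Filled points are arrays where the probe was well above background and open points those where it was not; grey ticks mark the lowest level of any measured probe on that array, and black bars are the mean ± SD of 3 arrays. VAV2 steps down from a mean of -0.52 to -1.34 and -2.33, and the 80 nM points of VAV1 and VAV3 lie near the grey ticks.

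Of 21981 genes tested, 330 (1.5%) had a larger fitted fall than VAV2 at 8 nM and 813 (3.7%) at 80 nM, given as a description since the family was picked for these values. No such rank is given for VAV1 and VAV3 at 80 nM, where neither probe was well above background. The fall of VAV1, VAV2 and VAV3 at 80 nM kept its direction under every scaling tried, but its size did not, with VAV3 between -3.76 and -7.01 and VAV2 between -1.44 and -2.09.

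The labelled cell type was checked against marker genes. Of 11 markers of an ovarian carcinoma line on the array, 6 were well above background on all untreated arrays, namely KRT8, KRT18, KRT19, EPCAM, CDH2 and VIM, while WT1, CDH1 and MUC16 were above background on no array of any group. Of 11 blood cell markers, 8 were well above background on all untreated arrays, led by CD79A, and MS4A1 and HBB on none in any group. The summed level of the blood markers, in multiples of the 75th percentile of the array, was 4.50 to 5.08 untreated, 3.56 to 5.15 at 8 nM and 4.19 to 4.82 at 80 nM. That sum is mostly the CD79A probe (mean level 2.11 untreated and 1.95 at each dose) and does not show the dimmer markers. CD68 went from -3.37 untreated to -2.12 at 80 nM, and PTPRC from -3.52 to -3.72. For 6 fibroblast markers the sum was 16.0 to 16.5 untreated, 15.8 to 19.2 at 8 nM and 16.8 to 17.6 at 80 nM. This sum, too, is mostly 1 probe, THY1 (mean level 3.83, 3.82 and 4.01). Other members differed in both directions at 80 nM. COL1A2 went from 0.29 to -6.46, where it was well above background on 0 of 3 arrays. DCN went from -1.25 to -2.65, while COL1A1 went from -2.36 to -0.05. For 5 endothelial markers, of which PECAM1, KDR and TEK were above background on no array, the sum was 0.21 to 0.221 untreated, 0.178 to 0.202 at 8 nM and 0.236 to 0.28 at 80 nM. No test is given for these marker genes, and their part in the VAV values was not tested.

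The genes that act with VAV were followed in 8 lists of 290 genes, of which 287 were on the array and 216 were tested. A gene was called when it changed at least 1.5-fold with an adjusted p under 0.05 (limma, Benjamini-Hochberg over all genes tested). At 8 nM, 11 pathway genes rose (5.09%) and 3 fell (1.39%), against 3.72% and 1.41% of all genes tested. At 80 nM, 40 rose (18.5%) and 48 fell (22.2%), against 18.4% and 16% of all genes, and the median difference was 0.05 beside 0.08 over all genes (at 8 nM, -0.04 beside -0.06). Between 80 nM and 8 nM, 42 rose and 42 fell (19.4% each), against 18.8% and 13.9%. The share called in the lists was therefore near the background at 8 nM, and at 80 nM stood above it by more in the genes that fell than in those that rose. Scaling the arrays to spike-in controls instead of the 75th percentile moved the median of all genes at 80 nM from 0.08 to -0.20, and the pathway genes then split into 15 that rose and 58 that fell, so that 79.5% of those called fell instead of 54.5%. Over all genes called the share moved likewise, from 46.4% to 73.3%. The number that fell at 8 nM was 6 without 8 nM replicate 1 and 5 without 8 nM replicate 2. The comparisons with untreated cells share the 3 untreated arrays, so their counts are not independent of each other.

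**Figure D2:**
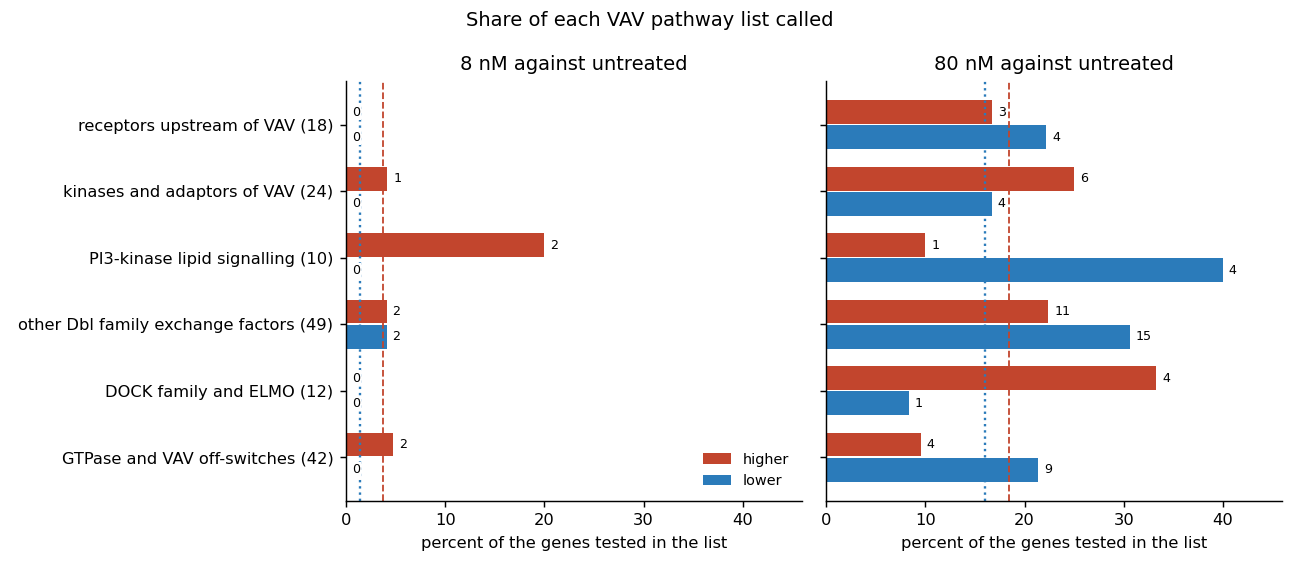
Percent of the tested genes of 6 of the 8 lists (x axis) called higher (red) or lower (blue) at 8 nM and at 80 nM against untreated cells, with the number of genes at the end of each bar and the number tested in brackets. Dashed red and dotted blue lines are the shares over all genes tested, 3.72% and 1.41% at 8 nM and 18.4% and 16% at 80 nM.

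Among 18 receptors tested that are known to engage VAV, 0 were called at 8 nM by limma (at an unadjusted p under 0.05, with no limit on the fold, 5 were higher and 0 lower, beside 3051 and 3471 of all 21981 genes). At 80 nM 3 rose (16.7%) and 4 fell (22.2%), against 18.4% and 16% of all genes. PDGFRA, a receptor for platelet-derived growth factor, had levels of 2.06, 1.85 and 1.83 untreated, 2.21, 2.08 and 2.18 at 8 nM, and -4.31, -4.64 and -4.84 at 80 nM. All 3 arrays at 80 nM lay far below the rest and were still well above background, a change of -6.51 ± 0.14 (SE, adjusted p = 8.6e-09). ITGAV, the integrin subunit alpha V, rose by 2.20 ± 0.07 (adjusted p = 9.7e-08), from 3.89 to 3.99 on untreated arrays to 6.09 to 6.17 at 80 nM. ERBB3, a partner of the other ErbB receptors, rose by 1.38 ± 0.13 (adjusted p = 3.9e-05), and by 0.47 on another probe of the gene that was also measured on every array. MET and CXCR4, singled out after their values were seen, were not well above background at 80 nM. With values below the lowest measured level of the array raised to it, they were 4.17-fold and 96.1-fold lower there than in untreated cells. These are not minimum falls.

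Among 24 tyrosine kinases and adaptors of VAV, 1 rose (4.17%) and 0 fell at 8 nM, against 3.72% and 1.41% of all genes. At 80 nM 6 rose (25%) and 4 fell (16.7%), against 18.4% and 16% of all genes. ZYX, a focal adhesion protein that binds VAV, rose by 1.11 ± 0.09 at 80 nM (adjusted p = 2e-05). LAT2, a membrane adaptor of blood cells, rose by 0.61 ± 0.11 at 8 nM (adjusted p = 0.0097) and by 0.90 ± 0.11 at 80 nM (adjusted p = 0.00017); the call at 8 nM was lost without untreated replicate 1 (0.56) or 8 nM replicate 2 (0.53). NCK2, an SH2 and SH3 adaptor, fell by 1.02 ± 0.12 on the log2 scale at 80 nM (adjusted p = 0.00013) and BCAR1, the docking protein p130Cas, by 0.82 ± 0.14 (adjusted p = 0.0011). A second probe of NCK2, measured on every array, gave -0.59 at 80 nM, and a dim second probe of BCAR1 gave 0.68. GRB2, whose SH3 domain binds VAV, differed by -0.12 ± 0.08 at 8 nM and 0.20 ± 0.08 at 80 nM and was not called (adjusted p = 0.34 and 0.061); with spike-in scaling its sign at 80 nM turned (-0.07). SYK, the kinase that phosphorylates VAV in blood cells, was not tested, since in no group did a probe of it exceed background on every array.

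Of 10 genes that make or remove the lipid bound by the pleckstrin homology domain, 2 rose (20%) and 0 fell at 8 nM, against 3.72% and 1.41% of all genes. At 80 nM 1 rose (10%) and 4 fell (40%), against 18.4% and 16% of all genes, with a median of -0.37. INPP5D encodes SHIP1, which removes a phosphate from the lipid product of PI3-kinase and is known from blood cells. Its level was -0.17, -0.34 and -0.41 untreated, 1.97, 2.17 and 1.88 at 8 nM, and -2.26, -2.19 and -2.15 at 80 nM. The 8 nM arrays were above and the 80 nM arrays below all untreated arrays: it rose by 2.31 ± 0.10 at 8 nM (adjusted p = 2.1e-05), fell by 1.89 ± 0.10 at 80 nM (adjusted p = 1.5e-06), and stood 18.4-fold lower at 80 nM than at 8 nM, with an adjusted p of 1.7e-08. PIK3CA, the catalytic subunit p110 alpha, fell by 1.13 ± 0.13 at 80 nM (adjusted p = 1e-04) and differed by -0.07 ± 0.13 at 8 nM. INPP4B, a phosphatase of the next lipid in the pathway, rose by 0.85 ± 0.22 at 80 nM (adjusted p = 0.011).

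The main substrates of VAV are RAC1, RHOG, RHOA and CDC42. RAC1 had levels of 2.76, 3.08 and 2.95 untreated, 2.74, 2.75 and 2.96 at 8 nM, and 3.61, 3.45 and 3.55 at 80 nM. RHOA had levels of 4.68, 4.97 and 4.69 untreated, 4.65, 4.78 and 4.78 at 8 nM, and 5.54, 5.45 and 5.55 at 80 nM. For both, and for RHOG, all 80 nM arrays were above all other arrays, and the untreated and 8 nM arrays overlapped. At 80 nM RAC1 rose by 0.60 ± 0.11 (adjusted p = 0.0014), RHOA by 0.73 ± 0.10 (adjusted p = 0.00029) and RHOG by 0.60 ± 0.08 (adjusted p = 0.00034), while VAV2 and VAV3 fell on the same arrays. These 3 rises were near the limit of 1.5-fold: with spike-in scaling they were 0.33, 0.46 and 0.32 and none was called. RAC1 also lost its call without untreated replicate 1 (0.52) or 80 nM replicate 1 (0.57), and RHOG without untreated replicate 1 (0.55) or 80 nM replicate 3 (0.56). CDC42 was not called at either dose (0.09 ± 0.09 and -0.18 ± 0.09, adjusted p = 0.52 and 0.12), although 2 other probes of the gene gave -1.07 and -0.49 at 80 nM. RHOC rose at both doses, by 0.63 ± 0.07 and 0.90 ± 0.07 (adjusted p = 0.0014 and 1.7e-05). The atypical GTPases RHOBTB2 and RHOBTB1 rose by 1.40 ± 0.11 and 1.31 ± 0.13 at 80 nM (adjusted p = 1.6e-05 and 5.5e-05), RND2, which lacks GTPase activity, fell by 0.78 ± 0.10 (adjusted p = 0.0003), and the mitochondrial RHOT2 fell by 0.62 ± 0.13 (adjusted p = 0.0033), a call lost without 80 nM replicate 1 (-0.56).

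**Figure D3:**
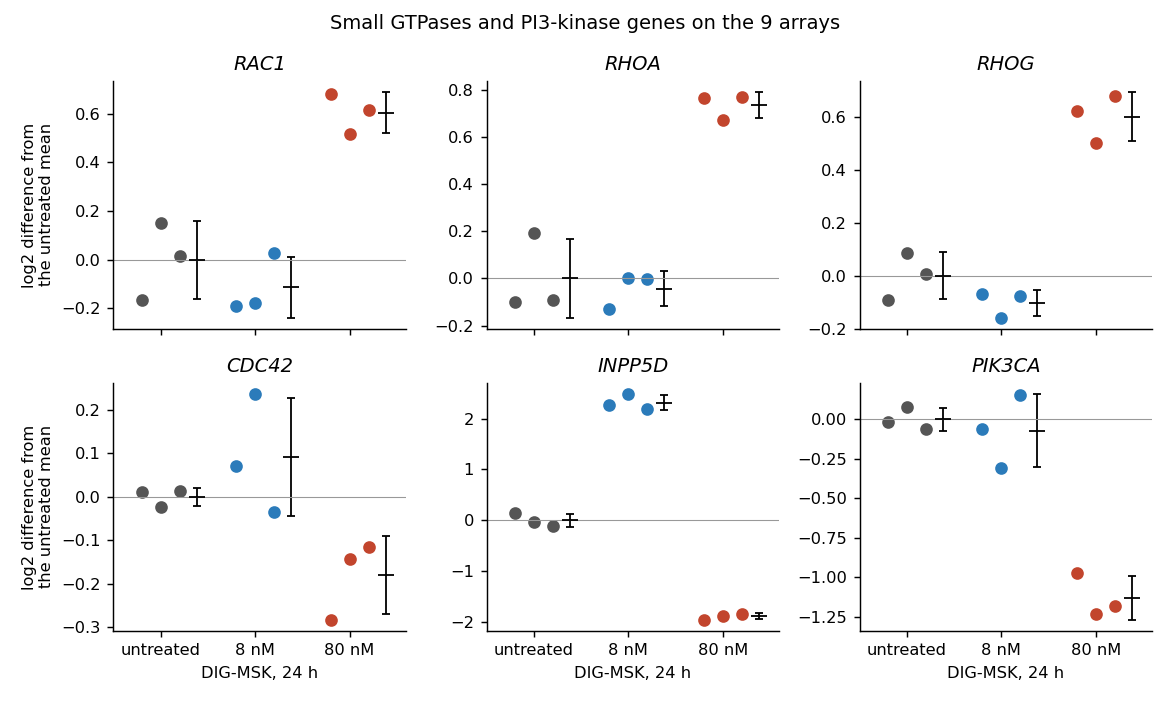
Level of 6 genes on each of the 9 arrays as the log2 difference from the mean of the untreated arrays (y axis, each panel with its own scale) by dose (x axis), with the mean ± SD of 3 arrays in black. RAC1, RHOA and RHOG lie above all other arrays at 80 nM, with means of 0.60, 0.73 and 0.60, whereas INPP5D lies above at 8 nM (2.31) and below at 80 nM (-1.89) and PIK3CA below at 80 nM (-1.13).

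Several proteins that bind the loaded GTPases are named by the same rule. PARD6A, the polarity scaffold that binds Cdc42, fell by 2.04 ± 0.11 at 80 nM (adjusted p = 1.9e-06) and differed by -0.01 ± 0.11 at 8 nM. Its paralog PARD6G rose by 1.16 ± 0.14 at 8 nM (adjusted p = 0.0015) and differed by -0.19 ± 0.14 at 80 nM (adjusted p = 0.26). BAIAP2, the membrane-bending adaptor IRSp53, fell by 1.69 ± 0.11 at 80 nM (adjusted p = 5.4e-06), with 2 further probes of the gene at -1.83 and -0.86. DIAPH3, a formin that elongates actin filaments, fell by 0.85 ± 0.08 at 8 nM and 1.09 ± 0.08 at 80 nM (adjusted p = 0.00058 and 1.2e-05), but another probe of it gave -0.68 and 0.02. PAK6, a kinase that binds Cdc42, and the scaffold IQGAP1 rose by 1.13 ± 0.22 and 1.01 ± 0.10 at 80 nM (adjusted p = 0.0024 and 6.5e-05).

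Of 49 other exchange factors with a Dbl homology domain, the family VAV belongs to by structure, 2 rose and 2 fell at 8 nM (4.08% each, against 3.72% and 1.41% of all genes). At 80 nM 11 rose (22.4%) and 15 fell (30.6%), against 18.4% and 16% of all genes, with a median of 0.08 equal to that over all genes. NGEF, known as ephexin, fell by 1.61 ± 0.13 (adjusted p = 1.5e-05) and FGD6, which acts on Cdc42, by 1.27 ± 0.15 (adjusted p = 0.00014). ARHGEF26, which loads RHOG, rose by 1.49 ± 0.18 (adjusted p = 0.00019), with another probe at 1.19. ARHGEF25, which loads RHOA, rose by 1.41 ± 0.51 (adjusted p = 0.041), but its untreated levels were -2.82, -0.75 and -0.67, and without untreated replicate 1 the difference was 0.71 (adjusted p = 0.02). The call was lost without any 1 of the 80 nM arrays (1.40 to 1.44) and without 8 nM replicate 1 or 2. Another probe of ARHGEF25, well above background on 2 of 3 untreated arrays, gave 1.62 at 80 nM. At 8 nM ABR, which holds both an exchange domain and a GTPase-activating domain, fell by 0.75 ± 0.12 (adjusted p = 0.0063), and ARHGEF3, which loads RHOA and RHOB, rose by 0.59 ± 0.13 (adjusted p = 0.022), a call lost without untreated replicate 1 (0.50) or 3 (0.62) or 8 nM replicate 3 (0.48). Set beside these as a description, since VAV2 was picked for its fall, the VAV2 difference at 80 nM (-1.81) had 1 of the 49 below it, with 1 probe per gene. That gene was PREX1, a Rac exchange factor singled out after its values were seen, at -4.76 ± 0.15 and well above background on 1 of 3 arrays at 80 nM. Other probes of ABR (-2.02) and ARHGEF7 (-1.91), and a dim probe of PREX2 (-2.19), also lay below VAV2 at 80 nM.

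Of 12 genes in a list of DOCK exchange factors, their ELMO partners, DEF6 and SWAP70, 0 were called at 8 nM (at an unadjusted p under 0.05, with no limit on the fold, 4 were higher and 3 lower, beside the same 3051 and 3471 of all genes). At 80 nM 4 rose (33.3%) and 1 fell (8.33%), against 18.4% and 16% of all genes, with a median of 0.52. DEF6 and SWAP70, related activators of Rac, rose by 1.80 ± 0.09 and 1.27 ± 0.08 (adjusted p = 1e-06 and 3.5e-06). The gene that fell was DOCK10, which was not well above background at 80 nM. With values below the lowest measured level of the array raised to it, DOCK10 was 9.24-fold lower there than in untreated cells. This is not a minimum fall.

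Of 42 off-switches of GTPases and of VAV itself, 2 rose (4.76%) and 0 fell at 8 nM, against 3.72% and 1.41% of all genes. At 80 nM 4 rose (9.52%) and 9 fell (21.4%), against 18.4% and 16% of all genes, with a median of -0.14. ARHGAP22, which switches off Rac, fell by 3.90 ± 0.14 (adjusted p = 1.4e-07), from -0.53 to -0.40 on untreated arrays to -4.50 to -4.27 at 80 nM. ARHGAP39, another GTPase-activating protein, fell by 1.48 ± 0.08 (adjusted p = 2.1e-06). CHN1, ARHGDIB and SRGAP3, singled out after their values were seen, were not measured on every array compared. ARHGDIB fell by 5.13 ± 0.24 at 80 nM, where it was well above background on 2 of 3 arrays. With values below the lowest measured level of the array raised to it, CHN1 was 41-fold lower at 80 nM than in untreated cells. In the same way SRGAP3 was 4.01-fold higher at 8 nM. These are not minimum changes. SOCS1, an adaptor of ubiquitin ligases that targets VAV for degradation, rose by 1.30 ± 0.14 (adjusted p = 9.3e-05), and ARHGAP40 rose by 1.25 ± 0.16 (adjusted p = 0.00019), while a dim second probe of ARHGAP40 gave -0.23. ARHGAP9, known from blood cells, rose by 0.89 ± 0.21 at 8 nM (adjusted p = 0.028), a call lost without any 1 of the untreated arrays (0.85 to 0.97) or without 8 nM replicate 3 (0.83), and by 0.87 ± 0.21 at 80 nM (adjusted p = 0.0067).

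Some of these calls depended on the background correction or the scaling. With normexp background correction PAK6 (0.41), ARHGAP40 (0.45), RHOG (0.56) and RND2 (-0.55) were no longer called at 80 nM, nor were LAT2 (0.35), ARHGEF3 (0.38) and ARHGAP9 (0.51) at 8 nM. With spike-in scaling ARHGEF25 (1.14), LAT2 (0.62) and INPP4B (0.57) lost their calls at 80 nM beside the 3 GTPases above, and at 8 nM so did ABR (-0.67), ARHGAP9 (0.96), ARHGEF3 (0.67), DIAPH3 (-0.78), LAT2 (0.68) and RHOC (0.70). The differences at 8 nM moved little and the standard errors were larger, for RHOC 0.241 instead of 0.073. None of these values changed sign.

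**Figure D4:**
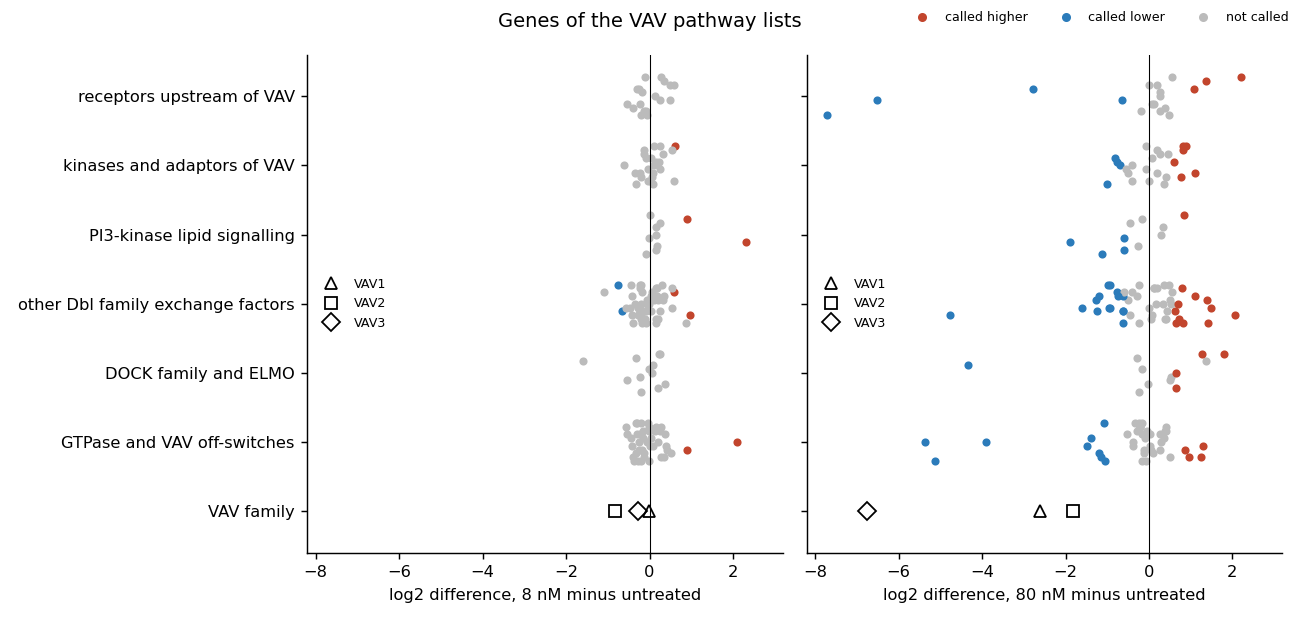
Log2 difference of each tested gene (x axis) at 8 nM and at 80 nM against untreated cells, for 6 of the 8 lists (y axis; vertical spread within a list has no meaning). Red and blue points are genes called higher and lower, grey points genes not called, and open symbols the VAV genes, which carry no call; the VAV1 and VAV3 symbols at 80 nM are fitted values of probes not well above background there. VAV2 lies at -0.82 and -1.81, and PDGFRA lies at -6.51 at 80 nM among the receptors.

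Among promoter windows of the pathway genes, at least 1 GC box was held by 64.5% of 93 windows of genes that fell at 80 nM. The share was 53.2% of 62 windows of genes that rose and 63.4% of 164 windows of genes not called, beside 42.6% of all windows. At least 3 boxes were held by 22.6%, 19.4% and 33.5% in the same order, beside 13.9% of all windows. Several windows can belong to 1 gene. These shares are descriptions and were not compared by a test.

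The genes whose level followed VAV2 and VAV3 most closely were sought among 13733 genes by Pearson correlation over the 9 arrays, as a description, since the arrays share their slide and dose groups. For VAV2 the 5 closest were RPUSD1 (r = 0.994), LRP8 (0.993), HK2 (0.993), KDM4B (0.992) and LETM1 (0.991). HK2, which phosphorylates glucose, differed by -0.58 at 8 nM and -1.44 at 80 nM, and KDM4B, a histone demethylase, by -0.78 and -2.04, beside -0.82 and -1.81 for VAV2. For VAV3 the 5 closest were HAPLN1, LMO1, FGF18, ZNF521 and CYB5A, with r from 0.999 to 0.9995. LMO1, a transcription cofactor, differed by -0.27 at 8 nM and -5.54 at 80 nM, and HAPLN1, which links hyaluronan to proteoglycans, by -0.19 and -4.71, both still well above background on all 80 nM arrays, beside -0.28 for VAV3 at 8 nM. ZNF521 and CYB5A, like VAV3, were well above background on 0 of 3 arrays at 80 nM.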

How the data were processed

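RNA of untreated A2780 cells and of cells given DIG-MSK at 8 or 80 nM was hybridised to 9 one-colour Agilent arrays, grouped by their labels. The methods name the Low Input Quick Amp kit, the labels Fair Play III labelling with Cy3. The authors extracted spot intensity with Feature Extraction 10.7.3.1 (submitters' processing notes); the deposited intensity used here is background-corrected and was not scaled across arrays. The deposited log2 values track the log2 median signal (correlation 0.99861 to 0.99983) with nearly equal medians (6.8886 to 6.9014), so they appear quantile-normalized without background subtraction, and served as an alternative. The lowess step of the methods has no second channel here and was not applied.

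Each array was scaled to its 75th percentile (511.1 to 750.1). Control and outlier spots were left out, 0 gene spots were saturated, and spots of a probe were averaged. A probe was kept if every array of some group had it well above background, and the brightest kept probe stood for its gene. RefSeq accessions were found for 27245 probes, and a GRCh38.p14 table gave 25715 of them a current symbol. Comparisons used limma 3.58.1 in R 4.3.3 on all 9 arrays, with Benjamini-Hochberg adjustment over 21981 genes, and the procedure was tested on simulated data. Where no array of a group exceeded background, each value below the lowest measured level of its array was raised to it. The resulting fold depends on the background correction and is not a minimum. The number of arrays limits the precision.

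The members, gene lists and rules were chosen with earlier results of these data known. Named genes are, per list, the 2 that rose and the 2 that fell most at 80 nM and 1 of each at 8 nM, among called genes measured on every array compared; RAC1, RHOA, RHOG, CDC42, GRB2 and SYK; and the 5 genes closest to VAV2 and to VAV3. The counts of 2 of the 8 lists on their own are not reported here. Alternatives were normexp (offset 50, median signal), quantile and spike-in scaling, the authors' values, no filter, the mean of probes, a replicate block, unadjusted p, each array left out and, added after seeing the data, outlier spots kept.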

Additional observations from a re-analysis of the deposited data

Results flagged for a closer look

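INPP5D, which encodes the lipid phosphatase SHIP1, was called in opposite directions at the 2 doses, up by 2.31 at 8 nM and down by 1.89 at 80 nM on the log2 scale against untreated cells. The test of the doses against each other gave a difference of -4.20 ± 0.10 (SE, limma adjusted p = 1.7e-08), and the call held under all 17 alternatives in both comparisons with untreated cells. Only 1 probe of the gene is on the array, and the 80 nM arrays are on a slide of their own.

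A spot of the VAV2 probe on 8 nM replicate 2, left out of all values because the scanner software marked it as an outlier, had a processed intensity of 27540, against 229.7 for the other spot of the same probe on that array and 251.8 to 314.7 for the 4 spots of the other 8 nM arrays. The source of the signal was not tested.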

How the results depend on the processing

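The VAV differences kept their direction except VAV2 at 8 nM where the outlier spot was kept, and VAV1 at 8 nM (-0.02), which was 0.05 with quantile normalization, 0.06 with spike-in scaling, 0.02 without untreated replicate 3 and 0.04 without 8 nM replicate 1; the counts of pathway genes that fell at 80 nM stayed within 1.5-fold of the main count under all 17 alternatives. With normexp background correction the VAV1, VAV2 and VAV3 differences at 80 nM against untreated were -0.67, -1.44 and -3.76, against 8 nM they were -0.62, -0.80 and -3.48, VAV2 at 8 nM was -0.64, and pathway genes that rose numbered 4 at 8 nM and 26 at 80 nM against 8 nM; normexp adds an offset, which compresses dim probes by construction. With the authors' values, which keep the background, the 3 genes differed by -1.12, -1.62 and -4.54 at 80 nM against untreated, and VAV1 and VAV3 by -1.07 and -4.23 against 8 nM. With spike-in scaling VAV2 and VAV3 differed by -2.09 and -7.01 at 80 nM against untreated, and VAV1, VAV2 and VAV3 by -2.61, -1.34 and -6.80 against 8 nM; pathway genes that rose numbered 4, 15 and 12 in the 3 comparisons and those that fell at 8 nM 0, beside 27 that fell among all genes; the cause was not tested. With the outlier spots kept, VAV2 at 8 nM turned to 0.33, or 0.35 on the authors' values, and its difference between 80 nM and 8 nM was -2.14, or -1.97; on those values the other differences were as with the authors' values above (-1.12, -1.62 and -4.54 against untreated, -1.07 and -4.23 against 8 nM), since the marked spot is the only one of the VAV probes.

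Pathway genes that fell at 8 nM numbered 5 with the mean of probes, 7 by unadjusted p, and 2 to 6 with each array left out, against 3. No replicate number pairs the samples: deviations of same-numbered arrays correlated between -0.122 and 0.159. With the replicate block, 11 rose and 3 fell at 8 nM and 40 rose and 48 fell at 80 nM, as without it, and none of 46 results of named genes changed its call. Of these 46, 12 lost their call with spike-in scaling, 7 with normexp, 5 with the authors' values, 3 with no filter and 1 with quantile normalization, and none that was called changed direction. Of those not called, GRB2 at 80 nM turned with spike-in scaling (-0.07), and RHOA at 8 nM (-0.04) turned with quantile normalization (0.04), spike-in scaling (0.03) and the authors' values (0.01), as well as without untreated replicate 2 (0.05) or 8 nM replicate 1 (0.001). Below background the arrays give no measured level, so the sizes of the VAV1 and VAV3 falls depend on the background correction.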
